A study of Rattus norvegicus with 19 samples.

Results

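Retinoic acid synthesis, binding, transport, signalling and breakdown were followed with 7 genes through 2 hypothalamic nuclei of hypertensive and normotensive rats. The genes were Aldh1a1, Aldh1a2, Crabp1, Crabp2, Rbp4, Rarb and Cyp26b1, taken as every probe set whose platform annotation gave 1 of these symbols and no other. This rule found 8 probe sets of 7 genes, 2 of them for Cyp26b1, among 31099 probe sets and 14217 genes on the array. No measured value entered the rule, but the 7 genes were chosen with earlier results of these data known.

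The groups were the supraoptic nucleus (SON) of spontaneously hypertensive rats (SHR, 4 arrays), the SON of Wistar-Kyoto rats (WKY, 5 arrays), the paraventricular nucleus (PVN) of SHR (5 arrays) and the PVN of WKY (5 arrays). All animals were untreated 12-week-old rats, males by the study's methods, and SHR is an inbred strain that becomes hypertensive, set against its normotensive WKY control. Nuclei were dissected under a microscope and pooled, and labelled RNA was hybridised to an Affymetrix rat whole-genome GeneChip, so the RNA of an array holds every cell type in the dissected pieces. The methods name pools of 5 nuclei but do not settle how many animals stand behind each array. The study asked how the strains differ in each nucleus.

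Retinoic acid is made from vitamin A in 2 oxidation steps, the last of them carried out by the retinaldehyde dehydrogenases encoded by Aldh1a1 and Aldh1a2. Retinol travels in blood on Rbp4, retinoic acid inside the cell is held by the carriers Crabp1 and Crabp2, and Cyp26b1 removes it by hydroxylation, while the retinoic acid receptor encoded by Rarb acts on target genes and is itself a classical target. In the brain the meninges are a known source of retinoic acid, with Aldh1a2 as their main synthesising enzyme.

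The start regions of the members are shown because 6 of the 7 genes were called between the nuclei in at least 1 strain and the receptor gene Rarb in none. Over all probe sets tested, 13.7% were called higher and 15.7% lower in the SON of SHR, and 13.2% and 13.7% in WKY. Crabp2 and Cyp26b1 entered these tests only through the SON, where they were high, so the count is a description. Each run is RefSeq sequence of build GRCr8, read 5′ to 3′ on the gene's strand, from 250 bases before the annotated start to 50 bases after it. Capitals mark the DR5 motif (a direct repeat of the receptor half-site with 5 bases between its copies), ATGCAAAT, CCAAT and TATAAA, all searched on both strands and none overlapping another here. All 7 members had an entry, and the 5 below are the synthesising enzymes, the receptor, and the carrier and the transport gene that were called between nuclei in both strains.
Rarb: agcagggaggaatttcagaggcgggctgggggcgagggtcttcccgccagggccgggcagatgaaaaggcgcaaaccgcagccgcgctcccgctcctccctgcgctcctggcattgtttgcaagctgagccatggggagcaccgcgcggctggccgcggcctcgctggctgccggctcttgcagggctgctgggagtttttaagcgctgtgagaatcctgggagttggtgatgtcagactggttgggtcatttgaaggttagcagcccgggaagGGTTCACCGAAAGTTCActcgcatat
Aldh1a1: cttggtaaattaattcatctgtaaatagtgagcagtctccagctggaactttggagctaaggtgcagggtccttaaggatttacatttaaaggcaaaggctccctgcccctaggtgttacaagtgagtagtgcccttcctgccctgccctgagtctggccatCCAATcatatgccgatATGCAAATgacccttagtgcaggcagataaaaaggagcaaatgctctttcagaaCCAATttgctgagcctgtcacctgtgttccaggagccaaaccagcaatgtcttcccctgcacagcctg
Aldh1a2: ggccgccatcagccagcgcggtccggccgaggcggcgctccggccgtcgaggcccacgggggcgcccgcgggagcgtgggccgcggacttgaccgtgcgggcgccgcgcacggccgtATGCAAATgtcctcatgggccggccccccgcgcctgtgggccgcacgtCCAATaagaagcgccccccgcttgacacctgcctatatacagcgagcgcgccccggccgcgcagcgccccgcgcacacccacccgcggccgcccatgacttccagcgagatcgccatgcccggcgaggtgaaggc
Crabp2: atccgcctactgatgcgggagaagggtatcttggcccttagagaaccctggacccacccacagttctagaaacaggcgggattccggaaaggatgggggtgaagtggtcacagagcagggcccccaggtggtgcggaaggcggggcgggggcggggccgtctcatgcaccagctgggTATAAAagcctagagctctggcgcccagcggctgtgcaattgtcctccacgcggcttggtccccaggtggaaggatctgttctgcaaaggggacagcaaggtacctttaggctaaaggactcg
Rbp4: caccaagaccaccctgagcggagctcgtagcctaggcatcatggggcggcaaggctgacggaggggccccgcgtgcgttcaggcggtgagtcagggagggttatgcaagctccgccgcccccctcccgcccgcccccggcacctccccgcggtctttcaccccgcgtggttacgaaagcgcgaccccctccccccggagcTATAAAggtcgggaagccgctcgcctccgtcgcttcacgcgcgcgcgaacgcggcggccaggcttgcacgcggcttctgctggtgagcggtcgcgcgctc

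Rarb (chr15:11336142-11336441, plus strand) held the only DR5 among the members, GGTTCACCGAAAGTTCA, starting 24 bases after the annotated start. That motif was found in 128 of 33469 promoters of the same length (0.382%). Aldh1a1 (chr1:227537370-227537669, plus strand) and Aldh1a2 (chr8:80758391-80758690, plus strand) each held 1 ATGCAAAT, a motif of 1.78% of promoters, and both held CCAAT, a motif of 37.5%. Crabp2 (chr2:175714612-175714911, plus strand) and Rbp4 (chr1:245313502-245313801, minus strand) each held TATAAA, present in 14.2% of promoters. The start regions of Crabp1 and Cyp26b1 held none of these 4 motifs, and no member held the DR1 or DR2 motif. These are matches of letters and no binding was measured.

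Values are log2 signals after each array was scaled to a common median, with low signals set to a floor of 1.91. Probe sets entered a test when their mean in 1 or more of the groups was at or above the median probe set, and a difference was called at a Benjamini-Hochberg adjusted p under 0.05 from limma over all tested probe sets. The arrays' medians lay between 35.9 and 46.5 signal units before scaling, and the mean correlation of an array with its own group was between 0.954 (SON WKY array 3) and 0.98. Labels were checked on markers. The magnocellular genes Avp, Oxt and Pdyn summed to between 7110 and 18200 signal units on every array, and the parvocellular genes Crh, Trh and Sst summed to between 173 and 361 in the SON, against 3740 to 5580 in the PVN. The p-values measure the spread between these arrays, which may be in part technical.

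Genes that mark the meninges and fibroblasts separated the nuclei, and this is given here because several members moved with them. Of 23 such genes listed, 22 were on the array and 19 were tested between nuclei, and limma called these 19 higher in the SON than in the PVN in both strains. Of the 19, 8 reached the level for testing in the PVN and the others entered through the SON, where they were high, so the count is a description. The list's median difference between SON and PVN was 3.31 in SHR and 3.03 in WKY. Their summed signal was 5020 to 13400 in SON SHR, 4180 to 6530 in SON WKY, 965 to 1100 in PVN SHR and 927 to 1110 in PVN WKY. Slc6a13, a transporter of the meninges, averaged 7.36 in SON SHR, 7.04 in SON WKY, 3.10 in PVN SHR and 2.58 in PVN WKY. Within the SON, 3 of 19 were higher in SHR (Dcn by 1.04, Lum by 1.00 and Serpinf1 by 0.94), and 8 had an unadjusted p under 0.05, while the methods' t-test (for unequal variances, with the same adjustment) called 0 of 19. In the PVN limma and the methods' t-test each called 0 of 8, and 2 had an unadjusted limma p under 0.05. In bulk tissue, more cells of a type and more RNA per cell cannot be told apart.

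In the SON, 2 of 7 tested members were higher in SHR, Aldh1a1 and Crabp2, and both exceeded 2-fold. Over all 16190 probe sets tested there, 1.29% were called higher, and 0.371% higher by at least 2-fold. In the PVN, 2 of 5 tested members were higher in SHR, Crabp1 and Aldh1a1, against 1.14% of 16104 probe sets, and only Crabp1 passed 2-fold (0.31%). No member was called lower in SHR in either nucleus (2.33% of all probe sets in the SON and 1.22% in the PVN), and none had an unadjusted p under 0.05 in that direction. The tested members' median strain difference was 0.55 in the SON and 0.42 in the PVN, beside −0.04 over all probe sets tested in each nucleus. The member probe sets below the level for testing in the PVN averaged lower in SHR there. These were Crabp2 (−0.23), Cyp26b1 1384392_at (−0.25) and Cyp26b1 1376667_at, which had arrays at the floor in both strains. Because the members were chosen with earlier results of these data known, these counts and medians are descriptions.

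The nuclei differed by more. In SHR, 5 of 7 tested members were higher in the SON than in the PVN, all 5 by at least 2-fold, where 13.7% of 17095 probe sets were higher and 2.89% were so by 2-fold. In WKY it was also 5 of 7, 4 of them by 2-fold, against 13.2% and 2.34% of all. No member was lower in the SON, beside 15.7% of all probe sets in SHR and 13.7% in WKY, and none had an unadjusted p under 0.05 in that direction. Aldh1a2, Crabp2, Rbp4 and Cyp26b1 (1384392_at) were called in both strains, Aldh1a1 in SHR and Crabp1 in WKY. Crabp2 and Cyp26b1 entered these tests only through the SON, where they were high, so the counts and medians over members are descriptions. The members' median difference was 2.58 in SHR and 1.81 in WKY, beside −0.02 and −0.01 over all probe sets. The comparisons between nuclei use the same arrays as those between strains.

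**Figure D1:**
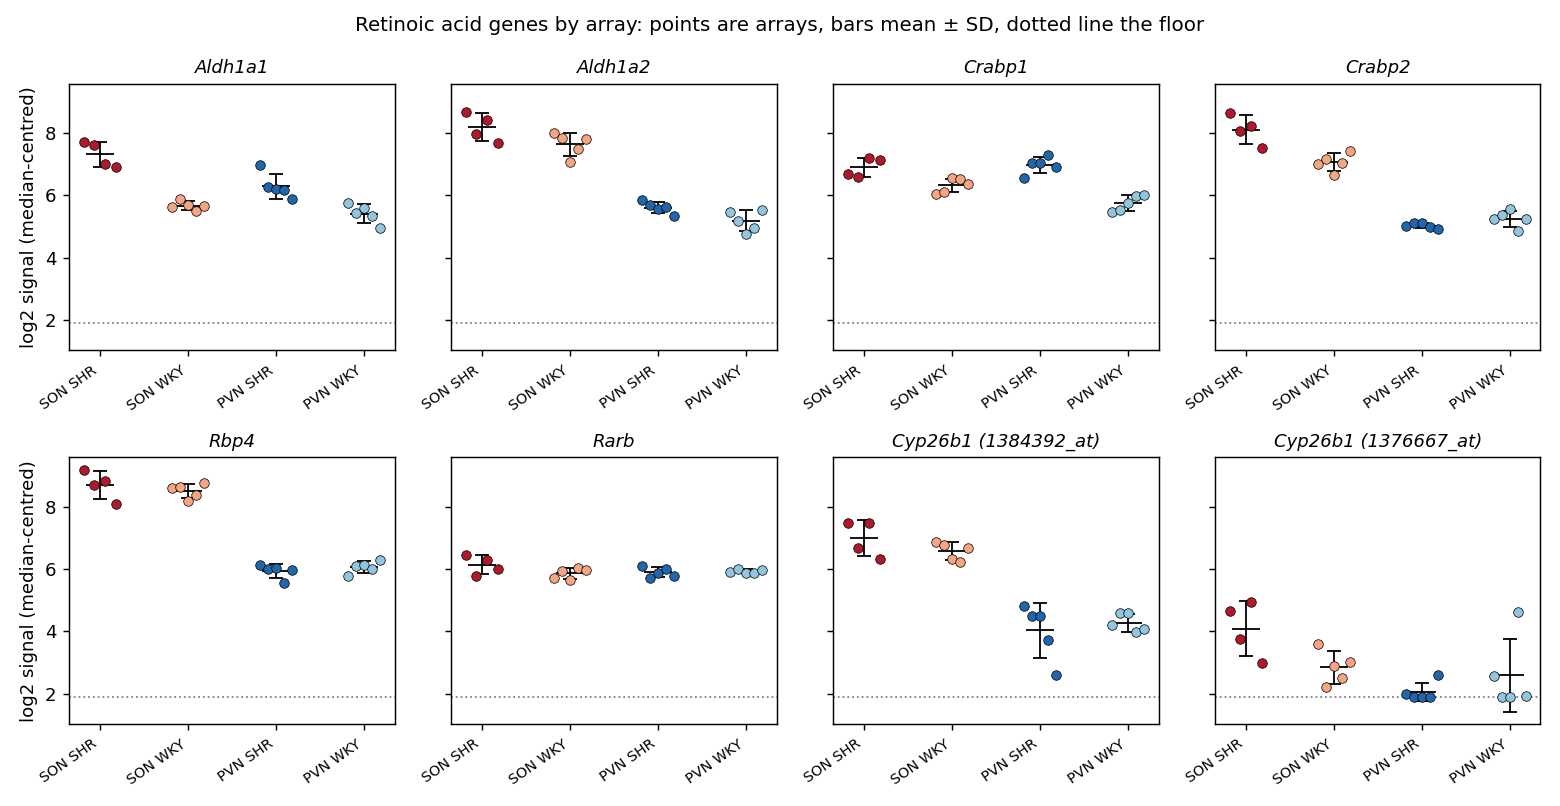
Log2 signal (vertical axis, median-centred) of each member probe set on each of 19 arrays, grouped as SON SHR, SON WKY, PVN SHR and PVN WKY, with group means and SD as bars and the floor as a dotted line. Aldh1a2, Crabp2, Rbp4 and Cyp26b1 (1384392_at) stand higher on every SON array than on any PVN array, and Rarb stays between 5.64 and 6.45 throughout.

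Aldh1a1 (probe set 1387022_at), a retinaldehyde dehydrogenase, was called between strains in both nuclei, and no other member was. Crabp2 and Cyp26b1 were tested between strains in the SON alone. In the SON Aldh1a1 read 7.70, 7.61, 7.01 and 6.90 on the SHR arrays and 5.62, 5.88, 5.67, 5.49 and 5.66 on the WKY arrays. The lowest SHR array lay above the highest WKY array by more than the whole WKY range. The difference was 1.64 (SE 0.168, 3.11-fold, adjusted p = 0.000193). In the PVN the signals were 6.96, 6.27, 6.19, 6.17 and 5.87 in SHR and 5.74, 5.43, 5.59, 5.34 and 4.94 in WKY. Here too the groups did not overlap, although the lowest SHR and the highest WKY array were close. The PVN difference was 0.88 (SE 0.184, 1.84-fold, adjusted p = 0.0155). It was not called with all probe sets tested (adjusted p = 0.13) or by the methods' t-test (0.18), and the SON difference was not called by the methods' t-test (0.0882).

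The strain difference of Aldh1a1 in the SON exceeded that in the PVN by 0.76 (95% confidence interval 0.18 to 1.33), and this interaction was not called (adjusted p = 0.563). From high to low its group means were 7.31 ± 0.41 in SON SHR, 6.29 ± 0.40 in PVN SHR, 5.67 ± 0.14 in SON WKY and 5.41 ± 0.30 in PVN WKY (SD, n = 4, 5, 5 and 5). SON SHR exceeded PVN SHR by 1.01 (adjusted p = 0.000694), with 1 PVN SHR array (6.96) above the lowest SON SHR array (6.90). The WKY nuclei, neighbours in that order, were not told apart (0.26, 95% confidence interval −0.14 to 0.65, adjusted p = 0.337). Aldh1a1 is also known from dopaminergic neurones. Of 4 such markers tested in the SON, 1 was lower in SHR (Th, fell by 0.80, adjusted p = 0.022), beside 2.33% of all probe sets, and none was higher. Of 7 tanycyte and ependymal markers tested in the PVN, 2 were higher in SHR (Tekt1 by 0.47 and Ak7 by 0.48), beside 1.14% of all probe sets. The others tested were not called (Foxj1 0.47, Col25a1 0.24, Tmem212 0.15, Vim 0.09 and Nes −0.29). Rax and Dio2 were below the level needed for testing. The list's summed signal was 2430 to 2800 in SHR and 1910 to 2480 in WKY. The part of these cells in the Aldh1a1 difference was not tested.

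Aldh1a2 (1368003_at), the other synthesising enzyme, followed the nucleus. It read 8.67, 7.96, 8.41 and 7.68 in SON SHR and 7.98, 7.84, 7.06, 7.48 and 7.80 in SON WKY. In the PVN it read 5.85, 5.68, 5.54, 5.61 and 5.33 in SHR and 5.47, 5.18, 4.77, 4.95 and 5.54 in WKY. Every SON array exceeded every PVN array, while the strains overlapped in both nuclei. SON exceeded PVN by 2.58 in SHR (5.97-fold, adjusted p = 7.92e-09) and by 2.45 in WKY (5.47-fold, adjusted p = 7.75e-09). SHR averaged above WKY by 0.55 in the SON (95% confidence interval 0.07 to 1.03, adjusted p = 0.197) and by 0.42 in the PVN (0.10 to 0.74, adjusted p = 0.204), and neither difference was called. The nucleus differences of the 2 strains were 0.13 apart (−0.47 to 0.72).

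Crabp1 (1391074_at) and Crabp2 (1370391_at) are the intracellular retinoic acid carriers. Crabp1 was called between strains in the PVN and Crabp2 in the SON, and the interaction of strain and nucleus was not called for either. Crabp1 in the PVN read 6.56, 7.04, 7.04, 7.27 and 6.92 in SHR and 5.47, 5.52, 5.75, 5.99 and 6.0 in WKY. All SHR arrays lay above all WKY arrays, and the difference was 1.22 (SE 0.146, 2.33-fold, adjusted p = 0.000118). In the SON it read 6.69, 6.57, 7.18 and 7.12 in SHR and 6.05, 6.12, 6.54, 6.51 and 6.34 in WKY. These groups also did not overlap, by a narrow margin (6.57 in SHR against 6.54 in WKY). The SON difference of 0.58 (SE 0.156, 1.49-fold) was not called (adjusted p = 0.0655), and it was called under 6 of 19 alternatives, among them with the replicate number as a block (0.59, adjusted p = 0.0344).

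The group means of Crabp1 were 6.97 ± 0.26 in PVN SHR, 6.89 ± 0.30 in SON SHR, 6.31 ± 0.22 in SON WKY and 5.75 ± 0.25 in PVN WKY (SD, n = 5, 4, 5 and 5). The SHR nuclei were not told apart (−0.08, SON minus PVN, 95% confidence interval −0.42 to 0.26). In WKY the SON exceeded the PVN by 0.57 (1.48-fold, adjusted p = 0.00985), so PVN WKY was the lowest of the 4 groups. The strain difference in the SON was smaller than in the PVN by an interaction of −0.64 (−1.12 to −0.17), which was not called (adjusted p = 0.563).

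Crabp2 in the SON read 8.63, 8.05, 8.21 and 7.50 in SHR and 7.0, 7.17, 6.64, 7.04 and 7.42 in WKY. The groups did not overlap, with the lowest SHR array at 7.50 against the highest WKY array at 7.42. The difference was 1.04 (SE 0.208, 2.06-fold, adjusted p = 0.0172). It missed the threshold without SON SHR array 3 (1.00, adjusted p = 0.0558), with all probe sets tested (adjusted p = 0.101) and by the methods' t-test (0.16). In the PVN Crabp2 read 5.00, 5.11, 5.11, 4.98 and 4.90 in SHR and 5.23, 5.38, 5.54, 4.85 and 5.25 in WKY, below the level needed for the strain test there. The SHR arrays lay inside the WKY range, with a difference of −0.23 (adjusted p = 0.533 with all probe sets tested).

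Between nuclei Crabp2 was 3.07 higher in the SON of SHR (8.43-fold, adjusted p = 8.86e-11) and 1.81 higher in the SON of WKY (3.5-fold, adjusted p = 1.01e-07). It entered these tests through the SON alone, since its PVN means lay at percentile 44.8 (SHR) and 48.6 (WKY) of all probe sets. Its strain differences in the SON and the PVN were 1.27 apart (0.75 to 1.79, adjusted p = 0.0577). limma called 0 of 7 members in this interaction, where 0.0819% of 17095 probe sets were called, and 3 members (Crabp2, Crabp1 and Aldh1a1) had an unadjusted p under 0.05. Crabp2 crossed the threshold under 8 of 27 alternatives, with adjusted p from 0.00567 to 0.215 over all of them. Of the SON-high marker list, Dcn, Lum and Serpinf1 were also higher in SON SHR than in SON WKY by about as much. They were the 3 genes called of 19 tested there, and the list's median strain difference in the SON was 0.56.

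**Figure D2:**
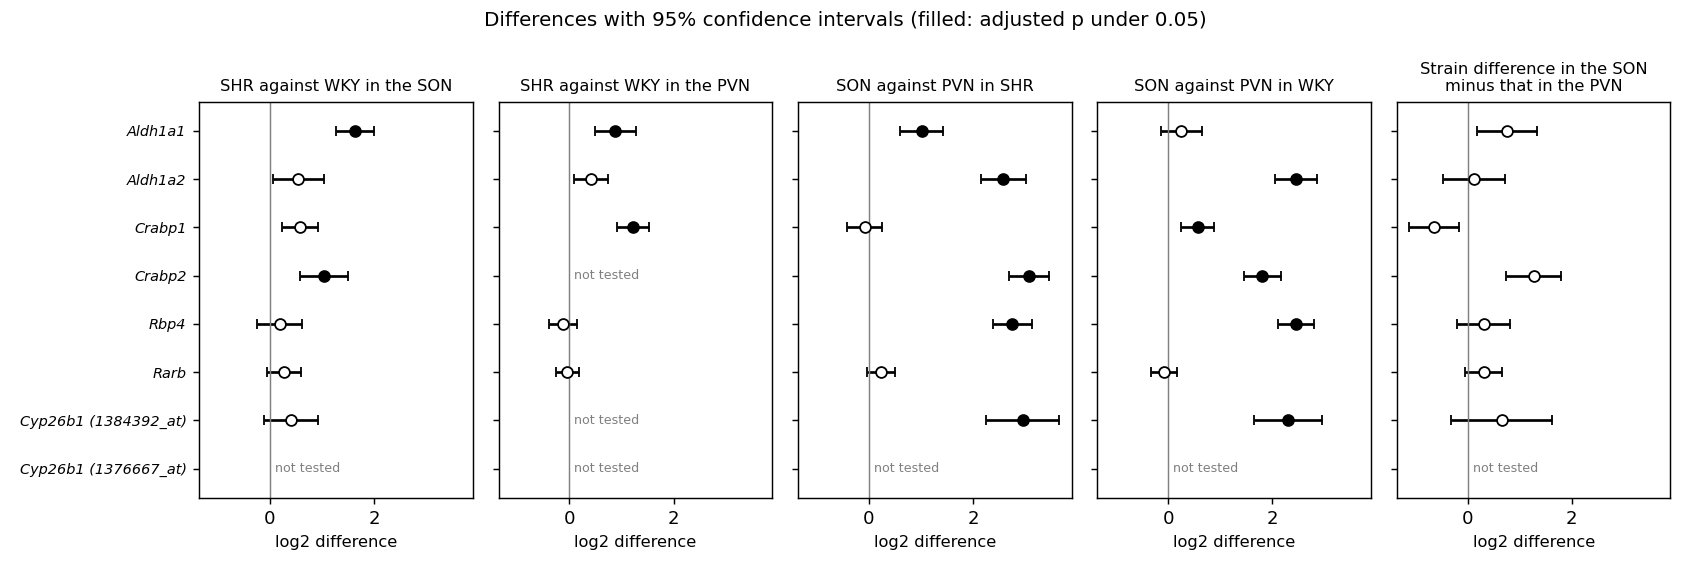
Log2 difference (horizontal axis) with its 95% confidence interval for each member probe set, one panel per comparison, with filled points where the adjusted p was under 0.05. Crabp1 has its larger strain difference in the PVN (1.22) and Crabp2 differs between strains in the SON (1.04), and the intervals of Rarb include 0 in every panel.

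Rbp4 (1371762_at), the plasma retinol carrier, read 9.19, 8.69, 8.81 and 8.07 in SON SHR and 8.58, 8.64, 8.19, 8.37 and 8.74 in SON WKY. It read 6.12, 6.01, 6.04, 5.56 and 5.95 in PVN SHR and 5.78, 6.10, 6.12, 6.0 and 6.28 in PVN WKY. The nuclei were apart on all arrays and the strains overlapped. SON exceeded PVN by 2.76 in SHR (6.75-fold, adjusted p = 2.66e-10) and by 2.45 in WKY (5.46-fold, adjusted p = 7.26e-10). SHR minus WKY was 0.19 in the SON (−0.24 to 0.61) and −0.12 in the PVN (−0.39 to 0.15).

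Cyp26b1, which degrades retinoic acid, had 2 probe sets. The first (1384392_at) read 7.46, 6.68, 7.46 and 6.32 in SON SHR and 6.86, 6.78, 6.33, 6.23 and 6.68 in SON WKY. In the PVN it read 4.82, 4.51, 4.48, 3.73 and 2.60 in SHR and 4.20, 4.58, 4.58, 3.96 and 4.07 in WKY. All SON arrays were above all PVN arrays, and PVN SHR array 5 was lowest. SON exceeded PVN by 2.95 in SHR (7.74-fold, adjusted p = 1.19e-06), or 2.59 without that array, and by 2.30 in WKY (4.92-fold, adjusted p = 1.47e-05). This probe set too entered through the SON alone, with PVN means at percentile 28.1 (SHR) and 32.5 (WKY), so the folds are taken against low signals. The strains overlapped in both nuclei, with a SON difference of 0.40 (−0.11 to 0.92, adjusted p = 0.378).

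The second Cyp26b1 probe set (1376667_at) was below the level needed for testing in every comparison. It read 4.67, 3.77, 4.93 and 3.00 in SON SHR and 3.58, 2.21, 2.89, 2.52 and 3.02 in SON WKY. In PVN SHR 3 of 5 arrays and in PVN WKY 2 of 5 arrays were at the floor. Its SON SHR arrays were all above its PVN SHR arrays (2.59 at most), as for the first probe set, while in WKY the nuclei overlapped, with PVN WKY array 4 highest at 4.62. No difference involving the PVN is given for it, since so many of its PVN values were set to the floor. None of its SON arrays was at the floor. There SHR averaged 1.25 above WKY with overlapping groups, which was not called with all probe sets tested (adjusted p = 0.265).

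Rarb (1376755_at), the receptor with the DR5 at its start, was not called in any comparison. It read 6.45, 5.76, 6.28 and 6.01 in SON SHR, 5.71, 5.95, 5.64, 6.02 and 5.98 in SON WKY, 6.09, 5.72, 5.89, 5.99 and 5.76 in PVN SHR and 5.91, 6.01, 5.88, 5.87 and 5.98 in PVN WKY. All 4 groups overlapped, and the widest interval of a difference between 2 groups was that of SHR against WKY in the SON, 0.27 (−0.05 to 0.59, adjusted p = 0.344). SON minus PVN was 0.24 in SHR (−0.03 to 0.50, adjusted p = 0.17) and −0.07 in WKY (−0.32 to 0.18). With array weights the SHR difference was called (adjusted p = 0.0259), as it was without SON SHR array 2 (adjusted p = 0.0372).

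Across the 4 SON SHR arrays the members that were high in the SON moved with the meningeal and fibroblast markers. The mean log2 signal of that list was 8.26, 7.35, 7.81 and 7.11 on SON SHR arrays 1 to 4 and 7.15, 7.06, 6.85, 7.08 and 7.32 on SON WKY arrays 1 to 5. Aldh1a2, Crabp2 and Rbp4 placed the SON SHR arrays in the same order as the list, with array 1 highest, then 3, 2 and 4. That order was not particular to the meningeal list. The mural list (6.61, 6.07, 6.44 and 6.04 on SON SHR arrays 1 to 4) and the choroid plexus list (5.13, 4.73, 4.86 and 4.34) had it too. Cyp26b1 had arrays 1 and 3 level at the top and array 4 lowest. No member had the full order of the list in SON WKY, PVN SHR or PVN WKY, although SON WKY array 3 was lowest for the list and for Aldh1a2, Crabp2 and Rbp4. That array was also the lowest of its group for every other marker list except the magnocellular one. Its mean correlation with its own group was the lowest of all arrays (0.954). Aldh1a1 and Crabp1 did not share the list's order in SON SHR, and Crabp1 was higher on SON SHR arrays 3 and 4 than on arrays 1 and 2. In the PVN the list's mean was 4.81 in both strains, with most of its genes below the level for testing. The part of these cells in the members' differences was not tested.

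**Figure D3:**
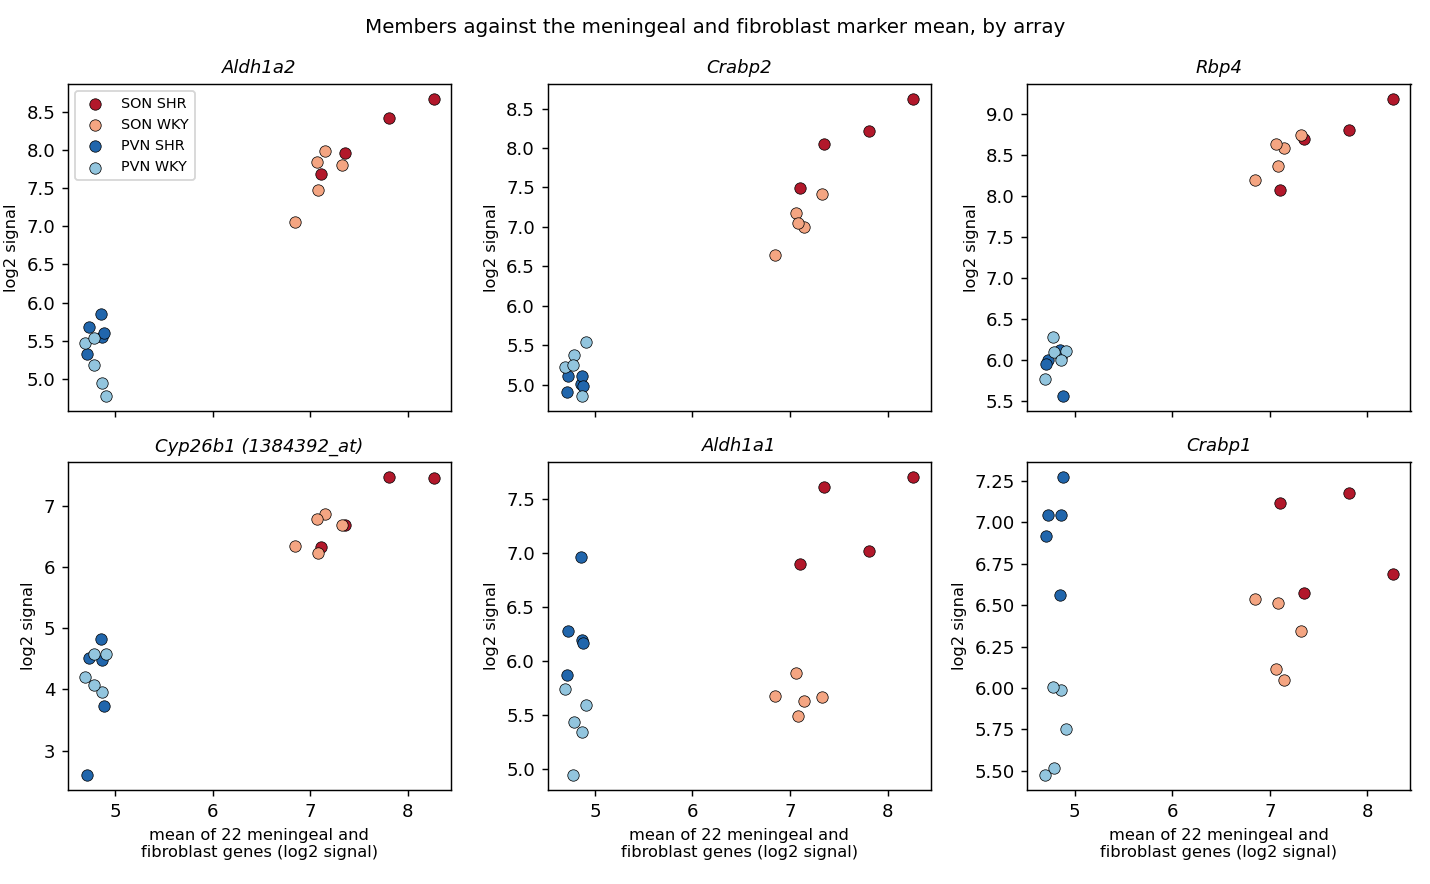
Log2 signal of 6 member probe sets (vertical axes) against the mean log2 signal of 22 meningeal and fibroblast genes (horizontal axis), with 1 point per array coloured by group. Aldh1a2, Crabp2, Rbp4 and Cyp26b1 are high where the marker mean is high, and the PVN arrays of both strains have a marker mean of 4.81 on average.

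Members were also compared with each other within groups, as each array's deviation from its group mean over 19 arrays, for 28 pairs of probe sets with p-values adjusted over the pairs. Aldh1a1 and Crabp1, both higher in SHR, ran opposite to each other within groups (Pearson r = −0.75, adjusted permutation p = 0.0334, Spearman rho = −0.75, adjusted permutation p = 0.0419). The sign was the same in each group, at −0.95 in SON SHR, −0.52 in SON WKY, −0.71 in PVN SHR and −0.77 in PVN WKY, and r was −0.66 without the 2 arrays farthest from the median of Aldh1a1. An array where Aldh1a1 was high for its group tended to have low Crabp1, as on PVN SHR array 1, which had the highest Aldh1a1 (6.96) and the lowest Crabp1 (6.56) of its group.

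Crabp2 and Rbp4 deviated together (r = 0.78, adjusted permutation p = 0.0334, rho = 0.71, adjusted permutation p = 0.0419), with r = 0.54 without the 2 farthest arrays. Within groups this was 0.997 in SON SHR and 0.91 in SON WKY, 0.32 in PVN SHR and 0.27 in PVN WKY. Crabp2 and Cyp26b1 (1384392_at) also deviated together (r = 0.55, adjusted permutation p = 0.0196, rho = 0.65, adjusted permutation p = 0.0419, r = 0.45 without the 2 farthest). The other Cyp26b1 probe set (1376667_at), partly at the floor in the PVN, followed neither Crabp2 (r = −0.05) nor 1384392_at (r = −0.02). By both measures 3 of 28 pairs passed. Arrays share dissection, RNA quality and scaling, and the part of these in the correlations was not tested.

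**Figure D4:**
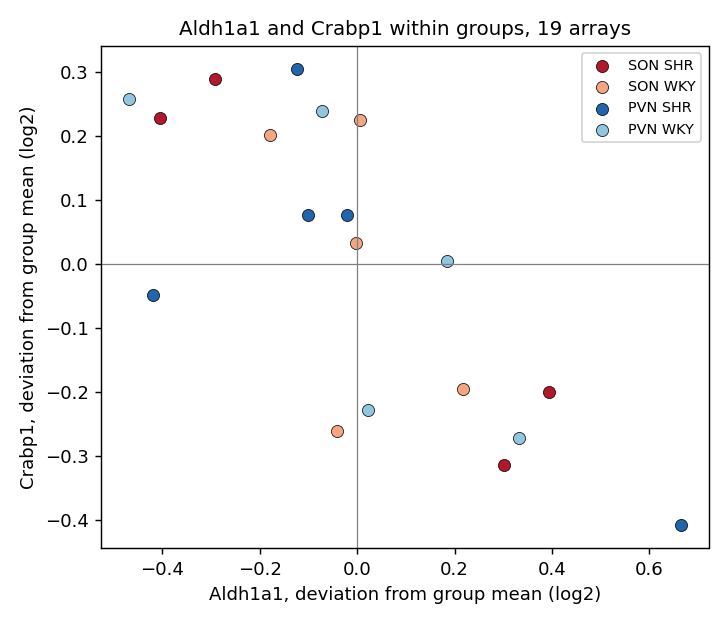
Deviation of Crabp1 (vertical axis) against that of Aldh1a1 (horizontal axis) from the group mean, in log2 units, with 1 point for each of 19 arrays coloured by group. Arrays with high Aldh1a1 for their group had low Crabp1, with r = −0.75 overall and a negative r in each group.

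For the 5 members tested in every comparison, the genes of most similar deviations over the 19 arrays were listed as a description. They were Grk6 (r = 0.90), Igdcc4 (0.87) and Acsbg1 (0.86) for Aldh1a1, and Lig3 (0.88), Clmp (0.85) and Fbn1 (0.80) for Aldh1a2. For Crabp1 they were Qtrt1 (0.81), Rgs17 (0.75) and Npat (0.75). For Rbp4 they were Coch (0.94), Ptpn14 (0.90) and Sav1 (0.90). For Rarb they were Spata24 (0.82), Stra6 (0.81) and Inppl1 (0.80), and Stra6, the cell-surface receptor for Rbp4, is itself a gene of the pathway.

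Of 37 other genes of the pathway, 30 were on the array by symbol and 16 were tested, each by its probe set of highest mean. Between strains limma called 0 of 16 in either nucleus, as did the methods' t-test, and 1 of 16 had an unadjusted limma p under 0.05 in each. Their median strain differences were 0.07 in the SON and −0.01 in the PVN. Between nuclei, 4 of 16 were higher in the SON and 1 lower in SHR, and 5 were higher and 2 lower in WKY. Over all probe sets 13.7% were higher and 15.7% lower in SHR, and 13.2% and 13.7% in WKY. The counts are of only 16 genes, and whether their shares differ from those of all probe sets was not tested.

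The retinoic acid-induced genes Rarres2, Rarres1 and Tgm2 were among those higher in the SON. Rarres2, which encodes chemerin, averaged 8.86 ± 0.54 in SON SHR, 8.27 ± 0.33 in SON WKY, 6.89 ± 0.16 in PVN SHR and 6.73 ± 0.31 in PVN WKY (SD, n = 4, 5, 5 and 5), a difference between nuclei of 1.96 in SHR (adjusted p = 5.53e-07) and 1.54 in WKY (adjusted p = 7.16e-06). Tgm2, a transglutaminase, differed by 1.46 in SHR (adjusted p = 2.92e-07) and 0.95 in WKY (adjusted p = 3.69e-05). Rarres1 differed by 1.24 in SHR (adjusted p = 0.000104) and 0.92 in WKY (adjusted p = 0.00124). By its probe set of highest mean, each of these target genes was called in the same direction in both strains.

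The differences of the other called genes were smaller. Dhrs3, which reduces retinaldehyde back to retinol, was higher in the SON by 0.39 in SHR (adjusted p = 0.00691) and 0.28 in WKY (adjusted p = 0.0362), and the carrier Fabp5 by 0.28 in WKY (adjusted p = 0.0474). Rxrg, a retinoid X receptor, was lower in the SON in both strains (−0.53 in SHR, adjusted p = 0.00185, and −0.49 in WKY, adjusted p = 0.00248), and Rxrb was lower in WKY (−0.56, adjusted p = 0.0162). Ttr, the plasma partner of Rbp4 and a choroid plexus gene, differed by 0.68 in SHR (adjusted p = 0.185) and 0.60 in WKY (adjusted p = 0.224). The choroid plexus list summed to 283 to 406 signal units in SON SHR, 231 to 423 in SON WKY, 316 to 435 in PVN SHR and 301 to 426 in PVN WKY. Of that list 3 genes were tested between nuclei, and Kl, Otx2, Kcnj13 and Cldn2 were below the level needed for testing. Ttr averaged higher in the SON without a call. Aqp1 was called higher there in SHR (0.55, adjusted p = 0.0473) and not in WKY (−0.03, adjusted p = 0.933). Folr1 was lower in the SON in both strains (−1.58 in SHR and −1.81 in WKY). The part of choroid plexus in the Rbp4 difference was not tested. Aldh1a3, the third retinaldehyde dehydrogenase, averaged 4.63 in SON SHR, 4.31 in SON WKY, 2.76 in PVN SHR and 3.37 in PVN WKY and was below the level needed for testing.

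**Figure D5:**
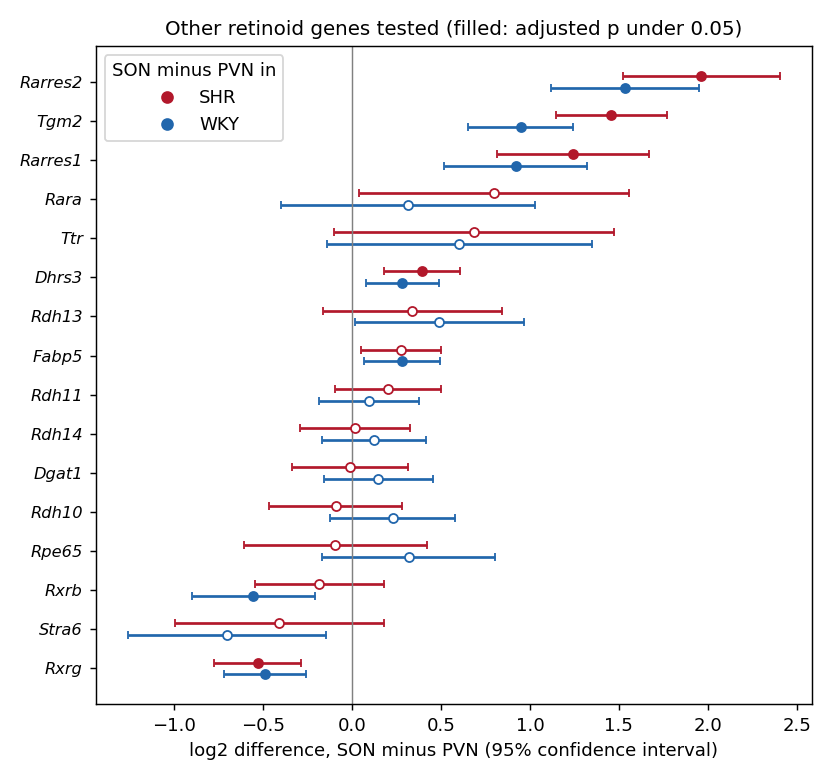
Difference between SON and PVN (horizontal axis, log2, with 95% confidence intervals) for the 16 other retinoid genes tested, each by its probe set of highest mean. On each row SHR is above and WKY below, with filled points where the adjusted p was under 0.05. Rarres2, Tgm2 and Rarres1 lie at 0.92 or more in both strains, and Rxrg lies below 0 in both.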

How the data were processed

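RNA of pooled nuclei was linearly amplified, biotin-labelled and hybridised by the authors, who made the deposited intensity values with Affymetrix MAS 5 (each array at a 2% trimmed mean of about 100, as found in the table). Genome build and scaling settings are not given in the sources used here. All 19 value columns were matched to samples by their labels, and 0 columns stayed unmapped. Symbols came from the platform annotation: 20826 probe sets had 1 symbol, 436 several and 9780 none, after 57 controls were left out.

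Each array was centred on the common median (41.1), floored at its 10th percentile over all arrays (3.75 signal units) and taken to log2. limma 3.58.1 (lmFit and eBayes, R 4.3.3) gave two-sided tests with Benjamini-Hochberg adjustment over all tested probe sets, on 2 groups for strains and on all 4 groups for nuclei and for the interaction. The study's t-test for unequal variances was run as an alternative, the methods' t-test. The filter took the place of its present calls, which are not used here. Scripts were tested on simulated data. Correlations of deviations used 100000 permutations within groups. Figures were drawn with Python 3.11.15 and matplotlib 3.10.9.

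The members, the lists and the rule for named genes (all members, every other listed pathway gene called in a comparison and up to 2 uncalled per role, and for likeness the 3 genes of highest r) were chosen with earlier results of these data known. The counts of the 10 marker lists between nuclei and of those with calls between strains are in the report or the closing section. Replicate numbers are shared between groups, but same-numbered arrays deviated together only weakly (correlations of −0.226 to 0.174 over the 4 pairings), so numbers were not taken to pair samples. Alternatives were scaling, floor, filter, moderation, array weights, replicate block, the samples in the fit and leaving out each array.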

Additional observations from a re-analysis of the deposited data

Results flagged for a closer look

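Within groups, 32 sets of arrays (8 probe sets in 4 groups) were searched for an array far from the rest by Dixon's criterion, which chance meets in about 1 in 20 groups, and 2 were found. Both belonged to the Cyp26b1 probe set 1376667_at in the PVN, where most arrays were at or near the floor of 1.91. PVN SHR array 5 read 2.59 on the log2 scale, with the next array at 1.98. PVN WKY array 4 read 4.62, with the next at 2.58. On the other Cyp26b1 probe set, 1384392_at, the same arrays read 2.60 (PVN SHR array 5, the lowest of its group) and 3.96 (PVN WKY array 4, also the lowest of its group). The probe set 1376667_at was below the level needed for testing, so no called difference of the report rests on these values.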

How the results depend on the processing

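Of 800 single-gene values recomputed under the alternatives, 774 kept their direction and side of the threshold, 6 lost a call, 16 gained one and 4 changed sign, none of these 4 called. In the PVN the 2 members higher in SHR became 1 with no filter and 1 by the methods' t-test (Crabp1 stayed called in both), and remained 2 without any 1 array. In the SON the 2 became 1 with no filter, 0 by the methods' t-test and 1 to 3 without 1 array, 1 being the count without SON SHR replicate 3. SON above PVN held for 5 to 6 members in SHR and 5 in WKY without any 1 array. The interaction count of 0 became 1 (Crabp2) with quantile normalization, with log2(value + 16), with the stricter filter, with limma-trend and with array weights, and was 0 to 1 without 1 array, 1 without PVN WKY replicate 4, SON SHR replicate 4 or SON WKY replicate 5. Values that changed sign without 1 array were Rarb between strains in the PVN (−0.0884 to 0.0045), Crabp1 between nuclei in SHR (−0.18 to 0.0261) and the interaction of Aldh1a2 (−0.0355 to 0.29, and −0.0147 without SON WKY replicate 3). With the replicate block the SON count was 3, adding Crabp1 (0.59), and it changed no other call of a member, while calls over all probe sets between strains were 333 with the block against 380 without it in the PVN, and 342 against 586 in the SON. Those totals were 119 (PVN) and 176 (SON) by the methods' t-test, 241 and 291 with no filter, 608 and 681 on signals as deposited, 393 and 921 with limma-trend, and 900 and 1573 with array weights, and without 1 array 273 to 736 (highest without PVN SHR replicate 1) and 322 to 722 (lowest without SON SHR replicate 3, highest without SON WKY replicate 3). The cause of these changes was not tested, except that testing all probe sets adds tests. The number of arrays, 4 or 5 a group, limits the precision. Low PVN signals of Crabp2 and Cyp26b1 limit the strain comparison there.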

Other observations

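Other cell type lists were measured beside the members, where 13.7% of all probe sets were higher and 15.7% lower in the SON of SHR, and 13.2% and 13.7% in WKY. Several of these counts are of few genes and lie near those shares. Between SON and PVN, 5 of 6 mural genes tested were higher in the SON of SHR and 3 of 6 in WKY. Of 5 astrocyte genes 3 were higher in the SON in each strain, and of 6 endothelial genes 2 were higher in SHR and 4 in WKY. Of 7 tanycyte and ependymal genes, 1 was higher and 5 lower in the SON in each strain. Of 5 microglial genes, 1 was higher and 1 lower in SHR, and 1 higher and 2 lower in WKY. Of 5 dopaminergic genes, 1 was higher and 3 lower in SHR, and 1 higher and 4 lower in WKY. Of 3 magnocellular genes 1 was higher in the SON in each strain, and all 3 parvocellular genes were lower. Choroid plexus genes had 1 of 3 higher (Aqp1) and 1 lower (Folr1) in SHR, and 1 of 3 lower (Folr1) in WKY. Between strains, limma called 1 of 5 microglial genes higher in SON SHR (Mrc1 by 0.61, adjusted p = 0.0459), beside 1.29% of all probe sets. It called no other gene of the microglial, mural, astrocyte, endothelial, choroid plexus, magnocellular or parvocellular lists in either nucleus. At an unadjusted p under 0.05, the number in the SON was 2 of 5 microglial, 2 of 6 mural, 0 of 5 astrocyte, 1 of 6 endothelial, 1 of 3 choroid plexus, 1 of 3 magnocellular and 1 of 2 parvocellular genes. In the PVN it was 0 of 4 microglial, 0 of 3 mural, 2 of 5 astrocyte, 0 of 5 endothelial, 0 of 3 choroid plexus, 2 of 3 magnocellular and 3 of 3 parvocellular genes.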
